A study of Rattus norvegicus with 40 samples.

Results

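The contralateral L4 dorsal root ganglion (DRG) of rats with a spinal nerve ligation (SNL) was compared with the same ganglion of sham-operated rats. The samples were chosen by their labels as L4 DRGs of the contralateral side, which gave 5 SNL and 5 sham arrays of the 40 in the series, with 1 array per ganglion. The SNL rats are numbered 4, 8, 9, 18 and 48 and the sham rats 1, 14, 17, 22 and 23, and values by rat are given in that order throughout. All were male Sprague-Dawley rats whose ganglia were taken 4 weeks after surgery, and no other treatment or allele sets the groups apart in the labels. In SNL rats a tight silk ligature was placed on the left L5 spinal nerve beyond its ganglion. Sham rats had the same exposure of the left side with no ligature. The contralateral L4 ganglion therefore lies on the side that was not operated on, and its own nerve was ligated in neither group. Ages were not given in the sources used here, nor was the hour at which tissue was taken. The comparison asks which genes differ in a ganglion remote from the injury. The p-values measure the spread between the ganglia of 5 separate rats per group. In the array file names each group holds a run of consecutive numbers. Any difference between such runs is not part of that spread and cannot be told apart from the procedure.

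A DRG holds the cell bodies of the sensory neurons of 1 spinal segment. Nociceptors carry pain and itch signals in thin fibres, and other neurons carry touch and body position in myelinated fibres. Satellite glia wrap each cell body, Schwann cells wrap the axons, and fibroblasts, vessels and resident macrophages lie between them. Injury of a spinal nerve is known to change gene expression strongly in the ganglion it belongs to. Ganglia of the opposite side share the circulation, the hormones and, through the spinal cord, the neural circuits of the injured animal, and they are often used as the reference for the injured side. Each array reads RNA from the whole ganglion, so fewer cells of a type and less RNA per cell cannot be told apart.

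The arrays of the 2 cohorts differed as wholes, and this bears on every gene below. The median signal of an array was 49.4 ± 0.772 (SD, n = 5) in SNL rats and 31.7 ± 0.770 in sham rats, 1.56 times as high. A signal under 16 was read by 18.4% ± 0.834 of probesets in SNL rats and 34.9% ± 1.32 in sham rats. Bacterial control transcripts, added to every sample, averaged 11.1 ± 0.187 against 9.30 ± 0.221 on the log2 scale. Degraded RNA raises the 3′ over the 5′ signal of a transcript, and for actin this log2 ratio was 4.02 ± 0.183 against 4.79 ± 0.199. In each of these 4 measures SNL and sham rats did not overlap (two-sided exact permutation test, p = 0.00794, which is the lower limit for 5 against 5). The same ratio of GAPDH was 1.40 ± 0.056 against 1.29 ± 0.117 and overlapped (exact permutation test, p = 0.103), as did that of hexokinase, 1.70 ± 0.105 against 2.04 ± 0.741 (exact permutation test, p = 0.413). Pearson's r between arrays, across probesets, was 0.970 to 0.973 among SNL rats, 0.983 to 0.992 among sham rats and 0.916 to 0.926 between the cohorts. All 10 arrays belong to the first array series of the labels. Of these 6 whole-array measures 4 separate the cohorts completely, so what they contribute and what the ligation contributes cannot be told apart in these data.

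**Figure D1:**
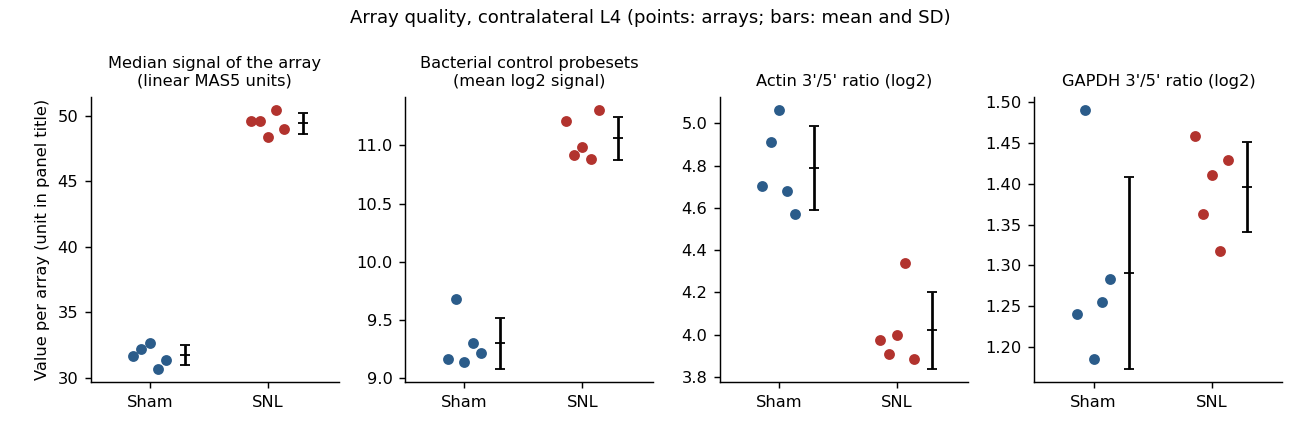
Array-level values in the contralateral L4 ganglia, with 1 point per array and the mean with its SD drawn beside the points (n = 5 rats per group). The panels give the median signal, the mean log2 signal of the bacterial controls and the log2 3′/5′ ratios of actin and GAPDH on axes that do not start at 0, and only the GAPDH ratio overlaps between SNL and sham rats.

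Because of the unequal medians each gene was tested on log2(signal + 16) of the deposited signals and again after quantile normalization of the 10 arrays. A gene is said here to be higher or lower, or to have risen or fallen, when limma gave an adjusted p under 0.05 under both scalings in the same direction. Log2 values are SNL minus sham on the deposited signals unless another scaling is named, with the standard error after ±. As deposited, 19814 of 31042 probesets (63.8%) were called, 13648 (44%) of them higher in SNL rats and 6166 (19.9%) lower. After quantile normalization 15890 (51.2%) were called, 7446 (24%) higher and 8444 (27.2%) lower. With the arrays scaled to equal medians 20233 (65.2%) were called, 7070 (22.8%) higher and 13163 (42.4%) lower, so the balance of directions followed the scaling. The median log2 difference over all probesets was 0.22, -0.02 and -0.12 under the 3 scalings. Both main scalings called 11737 probesets (37.8%), of which 6750 (21.7%) were higher and 4987 (16.1%) lower. All 4987 falls held under equal medians too, and 5036 (16.2%) of the rises did. Equal medians lower the SNL signals against the sham signals, so falls could hardly be lost and rises were lost more easily. That falls held under equal medians is therefore no separate support for them.

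**Figure D2:**
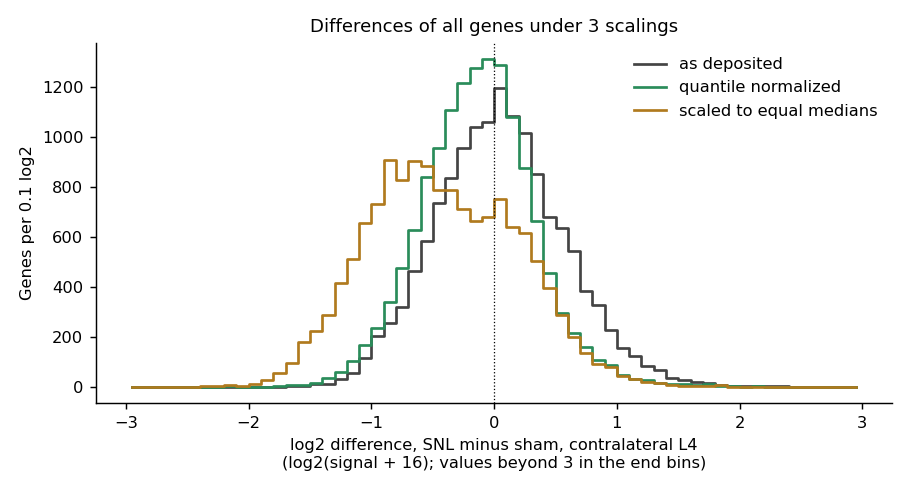
Number of genes (vertical axis) by their log2 difference, SNL minus sham, in contralateral L4 (horizontal axis), with 1 line for each of the 3 scalings over 14217 genes. The deposited signals centre near 0, with a median of 0.04, and the line of equal medians lies to the left, with a median of -0.45.

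Among the 14217 genes with a symbol, represented by their brightest probeset, 5558 (39.1%) were called under both scalings, 2014 (14.2%) higher and 3544 (24.9%) lower. Under all 3 scalings 1165 (8.19%) rises held, and all of the 3544 falls did, which equal medians could hardly undo. The groups did not overlap on the deposited signals for 6236 genes (43.9%). Direction moved with signal. With probesets ranked by mean signal and cut into 4 equal parts, 9.74% were higher and 1.68% lower in the dimmest part, whereas in the brightest 20.02% were higher and 35.4% lower. Direction also moved with annotation, since 33.8% of the 9780 probesets with no symbol listed were higher and 9.31% lower, against 15.9% and 19.3% of those with 1 symbol. Of the 50 largest rises 40 had no symbol, and of the 50 largest falls 12. Probesets of a gene did not always move together. Of 2791 genes that had more than 1 probeset and were called for any of them, 338 had calls in both directions. The part of overall signal and of probeset position in single results was not tested.

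The ganglia carried the transcripts of sensory neurons in both groups. Calca, the precursor of the peptide CGRP, read 3640.3 in SNL and 2351 in sham rats, and Nefl, the light neurofilament chain of large neurons, 6099.8 and 2659. Neither was called under both scalings. Calca turned to -0.25 after quantile normalization (limma, adjusted p = 0.00133), the opposite of the deposited signals. The summed deposited signal of the DRG neuron genes was 28119 to 30557 in SNL and 18537 to 22248 in sham rats. All 17 DRG neuron genes had a mean signal above 16. Of 22 skeletal muscle genes 10 were lower and 1 higher (2 higher without sham rat 14). Tnnc2, a troponin of fast muscle, was among the falls at 5.95 against 67.3. The summed signal of the list was 3616 to 3925 in SNL and 2925 to 3017 in sham rats. Its median signal was 26.9, and 6 of the 22 genes lay above the median of all probesets. These 6 make up most of the sum, which therefore does not stand for the list. Of 15 spinal cord glia genes 3 were higher and 3 lower, 7 of them with a mean signal under 16.

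Gene groups showed more falls than rises for most lists, as did all genes, for which the median log2 difference was 0.04 as deposited, -0.13 after quantile normalization and -0.45 with equal medians. Read against the 14.2% higher and 24.9% lower of all genes, the groups below are described by counts alone, with no test of a list. These shares moved with signal, as given above, and the lists were not matched by signal.

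**Figure D3:**
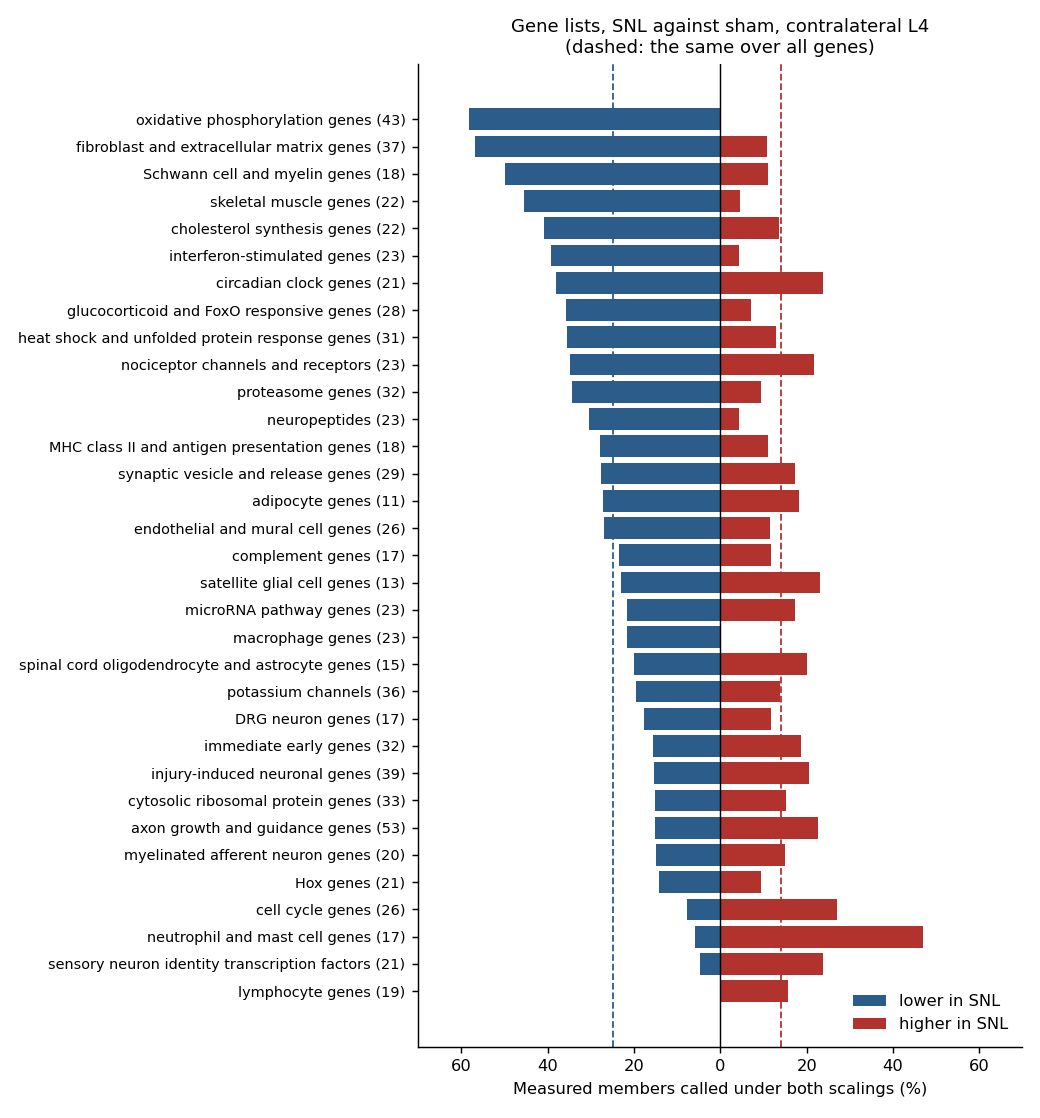
Percent of the measured members of each gene list with 10 or more of them (number in brackets) that were higher (right) or lower (left) in SNL than sham rats under both scalings, with the shares of all genes, 14.2% and 24.9%, as dashed lines. Oxidative phosphorylation and extracellular matrix genes have the longest bars to the left and neutrophil and mast cell genes the longest to the right.

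Several genes of neutrophil granules were higher in the contralateral L4 ganglia of SNL rats. Of 17 measured neutrophil and mast cell genes 8 were higher and 1, Lcn2, lower, and the 8 rises held under all 3 scalings. The other 8 were not called under both scalings. The median signal of the list was 23.8, and 7 of the 17 had a mean signal under 16. Of all probesets with a mean signal of 16.8 to 41.7, with or without a symbol, 26.3% were higher and 4.99% lower. S100a8 and S100a9 encode the paired calcium-binding proteins that fill the neutrophil cytosol. The S100a8 signal was 548, 549, 605, 557 and 556 in the SNL rats and 187, 185, 184, 195 and 194 in the sham rats. Every SNL rat read more than every sham rat, with a log2 difference of 1.497 ± 0.053 (limma, adjusted p = 4.45e-12). The S100a9 signal was 231, 221, 241, 270.4 and 228 in the SNL rats and 53.8, 64.5, 72.9, 75.7 and 56.5 in the sham rats, again with no overlap, a difference of 1.66 ± 0.09 (limma, adjusted p = 3.88e-10). RatNP-3b and Np4 encode defensins, antimicrobial peptides of the primary granules. RatNP-3b read 144, 165, 171, 171 and 147 in the SNL rats and 14.3, 18.4, 16.9, 19.9 and 19.3 in the sham rats, a difference of 2.38 ± 0.09. Np4 read 164, 202, 164, 185 and 139 in the SNL rats and 30.2, 42.9, 32.2, 26.3 and 33.9 in the sham rats, a difference of 1.93 ± 0.11. The sham values of RatNP-3b all lay below the median signal of sham arrays, and the SNL values of both defensins above the median of SNL arrays. Camp, the precursor of the granule peptide cathelicidin, read 86.7 ± 5.77 against 20.6 ± 2.75 (SD, n = 5) and Fcnb, a ficolin of neutrophils, 74.7 ± 11.5 against 19.3 ± 4.53, with differences of 1.49 ± 0.10 and 1.36 ± 0.12. The mast cell genes Fcer1a, the IgE-binding receptor chain, and Cpa3, a granule protease, read 42.8 ± 5.76 against 4.17 ± 1.92 and 37 ± 6.86 against 10.7 ± 1.78. Lcn2, which neutrophils and stressed tissue both make, read 53.5 ± 5.03 against 68.6 ± 10.3, a difference of -0.28 ± 0.10 whose call was lost without SNL rat 9 or sham rat 17 or 23. The summed signal of the list was 1499 to 1650 in SNL rats and 484 to 520.1 in sham rats.

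Blood content was read from red cell transcripts. Hbb, the beta globin chain, was 2155, 1962, 2288, 2058 and 2238 in the SNL rats and 1745, 2471, 2229, 2153 and 2412 in the sham rats, and the groups overlapped. Its log2 difference was -0.03 ± 0.08 as deposited (limma, adjusted p = 0.74) and -0.67 after quantile normalization, so its size depended on the scaling. Taken singly, the deposited signals called 6 red blood cell genes higher and none lower. Quantile normalization called 2 higher and 3 lower. Of 9 red blood cell genes 2 were higher and none lower (1 lower without SNL rat 8 or 18 or sham rat 17), among the rises Hemgn, a protein of red cell precursors, at 38.1 ± 5 against 9.53 ± 2.48. Of 23 macrophage genes none was higher and 5 were lower, among them Cd68, a lysosomal membrane protein, at 22.1 ± 7.86 against 39.4 ± 6.6, and Mrc1, the mannose receptor, at 171 ± 21.9 against 259.8 ± 29.6. Of 19 lymphocyte genes 3 were higher and none lower, with 10 at a mean signal under 16, and 1 was higher without SNL rat 18 or sham rat 22.

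The difference of the neutrophil genes was not the same on both sides of the segment. In the ipsilateral L4 ganglia of the same rats the S100a8 signal was 34.7 ± 5.9 against 141 ± 17.5 (SD, n = 5), a log2 difference of -1.63, the opposite of the contralateral side. The contralateral minus ipsilateral difference was 3.13 (limma interaction, adjusted p = 1.47e-16). S100a9 read 49.1 ± 19.4 against 52.7 ± 7.42 on the ipsilateral side, RatNP-3b 39.7 ± 2.5 against 26.7 ± 3.13 and Np4 79.5 ± 7.3 against 55.5 ± 7.3. Their interactions were 1.79, 1.99 and 1.51 (limma, adjusted p = 1.58e-06, 2.13e-10 and 7.95e-08), so the SNL minus sham value of each of these 4 genes was more positive on the contralateral side. The ipsilateral L4 arrays also differed between the cohorts, with medians of 54.4 ± 1.20 in SNL and 37.3 ± 1.30 in sham rats. Their log2 GAPDH 3′/5′ ratios were 2.35 ± 0.122 against 1.72 ± 0.080. Array-level differences and side therefore cannot be told apart in the interactions with ipsilateral L4. In the contralateral L5 ganglia S100a8 read 543 ± 9.04 against 75.6 ± 8.98 and S100a9 197 ± 14.6 against 25.7 ± 5.05. Both differences were larger there than in contralateral L4, with L4 minus L5 at -1.12 and -0.70 (limma interaction, adjusted p = 2.7e-10 and 0.000178). RatNP-3b and Np4 rose there by 2.42 and 2.10, and the difference between segments did not pass the test (adjusted p = 0.8 and 0.379). The L5 arrays of SNL rats belong to the second array series and also carried muscle RNA, 19 of 22 muscle genes being higher there, so series and procedure cannot be told apart in the L5 values. Globin RNA moved as well in the other ganglia. Hbb read 948 ± 106 against 2256 ± 75.4 in ipsilateral L4, a log2 difference of -1.24. In contralateral L5 it read 3689 ± 645 against 1771 ± 145, a difference of 1.04. In contralateral L4 the groups overlapped on the deposited signals. In ipsilateral L4 Hbb and S100a8 were both lower in SNL rats, and in contralateral L5 both were higher. The part of blood content in the differences between ganglia was not tested.

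**Figure D4:**
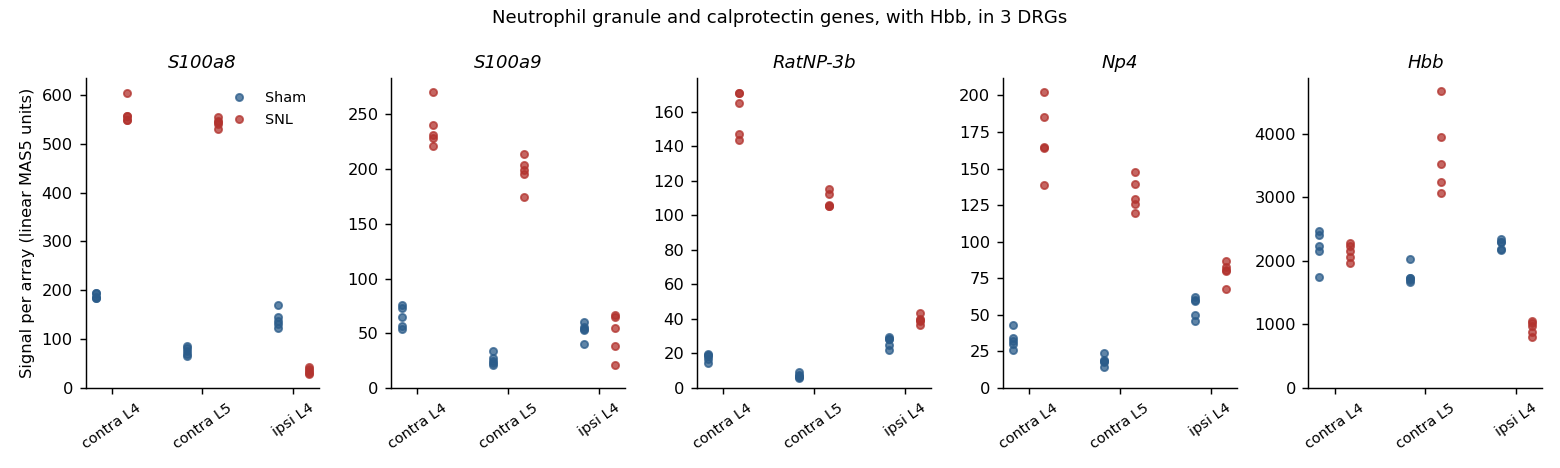
Signals on linear axes of S100a8, S100a9, RatNP-3b, Np4 and Hbb in each array of the contralateral L4, contralateral L5 and ipsilateral L4 ganglia, with SNL and sham rats side by side (n = 5 each). The 4 neutrophil genes separate the groups in both contralateral ganglia, S100a8 runs the other way in ipsilateral L4, and Hbb overlaps in contralateral L4 but not in the other ganglia.

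Genes of the circadian clock moved in both directions. The clock is a feedback loop in which Bmal1 with Clock or Npas2 drives genes through the E-box CACGTG. The products of the Per, Cry and Nr1d genes shut the loop off again, and Dbp, Hlf and Tef act through the D-box TTATGNAA. Of 21 measured clock genes 5 were higher (Npas2, Rora, Rorb, Per3 and Hlf) and 8 lower (Dbp, Per1, Per2, Nr1d1, Nr1d2, Cry2, Bhlhe41 and Usp2). The rises of Npas2, Rora and Rorb held under all 3 scalings. The letters of these motifs were looked for on both strands in promoter windows of 300 bases, 250 before and 50 after the start of the gene, from RefSeq on GRCr8. The E-box is in 6.42% of 33469 such windows and the D-box in 3.66%. Of the 8 lower genes, all with a window listed, Nr1d1 and Bhlhe41 hold the E-box and Per2 the D-box. Another window listed for Nr1d1 holds no E-box. None of the 4 higher genes with a window holds either, and 2 of 6 uncalled clock genes hold the E-box. Stretches of 30 bases around the motifs of the lower genes are shown, with the motif in capitals, to place it in sequence beside the values that follow. All lie on the minus strand and read 5′ to 3′ in the direction of the gene: Nr1d1 at chr10:84229628-84229657, Bhlhe41 at chr4:180569386-180569415 and Per2 at chr9:99497167-99497196.
Nr1d1: tgtcagctcccaCACGTGtctggggatcct
Bhlhe41: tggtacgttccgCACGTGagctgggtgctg
Per2: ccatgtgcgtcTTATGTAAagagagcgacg
The motif begins 191 bases before the start used for this window of Nr1d1, 48 before that of Bhlhe41 and 192 before that of Per2.

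Dbp, an output gene of the clock, read 57.5, 68.6, 47.5, 56.2 and 45.5 in the SNL rats and 153, 150.2, 155, 178 and 159.7 in the sham rats. Every SNL rat lay below every sham rat, with a log2 difference of -1.31 ± 0.09 as deposited (limma, adjusted p = 8.41e-09) and -1.45 after quantile normalization. Nr1d1, the repressor that turns off Bmal1, read 91.8, 83.6, 74.9, 81.9 and 85.5 in the SNL rats and 166, 198, 151, 188 and 194 in the sham rats, also with no overlap, a difference of -0.97 ± 0.08 (limma, adjusted p = 6.65e-08). Per1 read 54.7, 7.54, 20.6, 31.3 and 5.8 in the SNL rats and 51.5, 58.9, 62.1, 74.6 and 73.9 in the sham rats. The SNL rats varied widely, rat 4 lying within the range of the sham rats and rats 8 and 48 near the floor of the array, and the difference was -1.14 ± 0.25 (limma, adjusted p = 0.000861). Npas2, a partner of Bmal1, moved the other way and read 78.6, 134, 135, 141 and 101 in the SNL rats and 48, 40.7, 30.4, 42.1 and 33.4 in the sham rats, a difference of 1.27 ± 0.14 (limma, adjusted p = 8.18e-07). Rora and Rorb, nuclear receptors that turn on Bmal1, rose by 1.12 ± 0.13 and 0.92 ± 0.12. The other probeset of Rora was not called under both scalings and differed by 0.47. Bmal1 itself was 31.3 ± 4.19 against 13.5 ± 3.37 (SD, n = 5). It differed by 0.68 ± 0.12 as deposited (limma, adjusted p = 0.000102) and by 0.14 after quantile normalization (adjusted p = 0.31), so it was not called under both. Per2, Cry2 and Bhlhe41 differed by -0.55, -0.51 and -0.62 as deposited, each with no overlap. The single other probeset of each of Per2, Cry2 and Usp2 was not called under both scalings and differed by 0.80, 0.58 and 0.51, opposite in direction. In contralateral L5 the log2 differences were -1.02 for Dbp, -0.92 for Nr1d1 and 0.98 for Npas2, and in ipsilateral L4 -1.06, -0.38 and 0.66. For none of these 3 genes did the interaction with either ganglion pass under both scalings. Per1 in ipsilateral L4 differed by 0.83, and its contralateral minus ipsilateral difference of -1.97 passed under both (limma, adjusted p = 0.000112 as deposited). The labels and methods do not give the hour at which each cohort was sampled, and its part in these values was not tested.

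**Figure D5:**
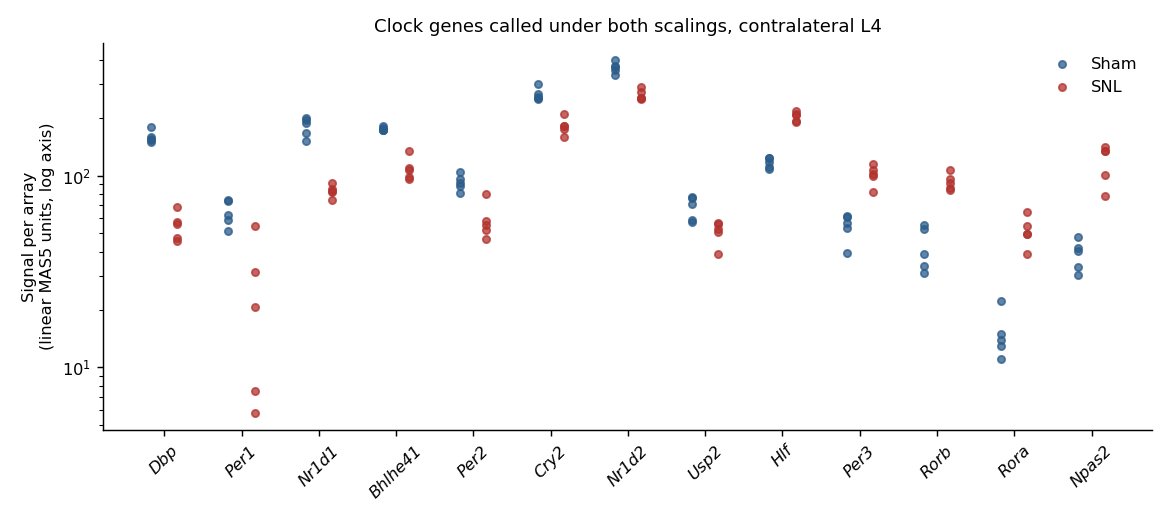
Signals on a log axis of the 13 clock genes called under both scalings in each contralateral L4 array, with sham rats on the left and SNL rats on the right of each gene (n = 5 each). Dbp and Nr1d1 are lower in every SNL rat, Npas2 is higher in every SNL rat, and Per1 spreads from 5.8 to 54.7 among SNL rats.

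Many nuclear genes of the mitochondrial respiratory chain were lower. Of 43 measured oxidative phosphorylation genes 25 were lower and none higher. Their median log2 difference was -0.35 as deposited and -0.30 after quantile normalization. In ipsilateral L4 21 of them were lower and 2 higher, with 18% of all genes lower there. In contralateral L5 12 were lower and 3 higher, with 30.4% of all genes lower. Ndufs7, a subunit of complex I, read 194, 185, 185, 192 and 241 in the SNL rats and 572, 629, 549.9, 680.0 and 613 in the sham rats. No SNL rat reached the lowest sham rat, and the difference was -1.54 ± 0.08 (limma, adjusted p = 1.78e-10). Ndufa2 and Ndufb6, also of complex I, read 436 ± 24 against 891 ± 110.2 and 480.1 ± 59.8 against 914 ± 55.2 (SD, n = 5), and Uqcrq of complex III 373 ± 33.6 against 836 ± 23.5. Other sets of housekeeping genes were mixed. Of 32 proteasome genes 11 were lower and 3 higher, with Psmc4, a subunit of the cap, at 339 ± 5.27 against 595 ± 24.7 and Psmb5, the chymotrypsin-like subunit, at 549 ± 39.2 against 914 ± 46.9. Without SNL rat 8 or sham rat 1 the rises of this list numbered 5. Of 33 cytosolic ribosomal protein genes 5 were higher and 5 lower, 8 lower without sham rat 1. Of 22 cholesterol synthesis genes 9 were lower and 3 higher, the rises not holding under equal medians. Among the falls were the late pathway enzymes Dhcr7, Nsdhl, Hsd17b7 and Sc5d, with differences of -0.98, -0.85, -0.64 and -0.79. Of 31 heat shock and unfolded protein response genes 11 were lower and 4 higher. Hspa1a, the inducible chaperone, read 55.3 ± 14.5 against 106 ± 9.16, and Herpud1, which works in disposal of misfolded proteins, 128 ± 16.1 against 275 ± 29.

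Most extracellular matrix transcripts were lower in the contralateral L4 ganglia. Of 37 measured fibroblast and matrix genes 21 were lower and 4 higher, 2 of the rises holding under all 3 scalings. The summed deposited signal of the list overlapped, at 16300 to 17767 in SNL and 15767 to 16985 in sham rats. Col4a1, a chain of basement membrane collagen, read 125, 137, 137, 124 and 143 in the SNL rats and 239, 289, 290.4, 298 and 321 in the sham rats. The groups did not overlap, with a difference of -1.02 ± 0.08 (limma, adjusted p = 1.45e-08). Timp1, an inhibitor of matrix proteases, read 163, 167, 187, 199 and 193 in the SNL rats and 314, 393, 392, 379 and 367 in the sham rats, a difference of -0.96 ± 0.07 with no overlap. Fmod, a collagen-binding proteoglycan, was 21.1 ± 10.4 against 40.5 ± 6.08 (SD, n = 5) and Col1a2, a chain of the main fibrillar collagen, 884 ± 74 against 1053 ± 25.7. Pdgfrb, a growth factor receptor of fibroblasts and pericytes, went the other way at 149 ± 26.2 against 78.2 ± 11.5. The counts for this list differed by ganglion, with 11 higher and 3 lower in ipsilateral L4, where 11.6% of all genes were higher and 18% lower, and 2 higher and 26 lower in contralateral L5, where 13.9% were higher and 30.4% lower. These counts were not tested against each other. For Col4a1 the ipsilateral difference was -0.16, and contralateral minus ipsilateral was -0.86 (limma interaction, adjusted p = 1.29e-05). Ccn2, a matrix growth factor, was 108 ± 4.9 against 214 ± 7.43 in contralateral L4 and differed by 0.64 in ipsilateral L4, an interaction of -1.53 (adjusted p = 3.63e-10).

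Schwann cell genes included regulators of myelin among the falls. Of 18 measured Schwann cell and myelin genes 9 were lower and 2 higher, and neither rise held under equal medians. The summed deposited signal of the list went the other way, at 13848 to 15977 in SNL and 11937 to 13737 in sham rats. Sox10, the factor that Schwann cells and satellite glia need for their identity, read 106, 109.7, 87.5, 81.5 and 83.2 in the SNL rats and 219, 219, 287, 203 and 271 in the sham rats. No SNL rat reached the sham range, and the difference was -1.22 ± 0.10 (limma, adjusted p = 5.14e-08). Egr2, the switch for myelination, read 374, 369.9, 377, 348 and 383 in the SNL rats and 655, 719.8, 675, 711 and 739 in the sham rats, a difference of -0.89 ± 0.05, and Prx, a structural protein of Schwann cells, 364 ± 39.2 against 682 ± 15.2 (SD, n = 5), a difference of -0.88 ± 0.07. The other probeset of Egr2 differed by 0.82 as deposited, the opposite direction, and was not called under both scalings. In ipsilateral L4 Egr2 differed by 0.22 and in contralateral L5 by 0.02. Both interactions passed, at -1.11 and -0.91 for contralateral L4 minus the other ganglion (limma, adjusted p = 1.03e-10 and 3.94e-09). Those of Prx passed as well, at -0.55 and -0.58. Ugt8, which makes the main myelin lipid, read 404, 464, 415, 447 and 376 in the SNL rats and 391, 248, 251, 263 and 234 in the sham rats, a difference of 0.60 ± 0.11 as deposited that turned to -0.01 under equal medians. Sham rat 1 lay above the other sham rats and within the range of the SNL rats. Of 13 satellite glial genes 3 were higher and 3 lower. Of 26 endothelial and mural genes 7 were lower and 3 higher, and of 11 adipocyte genes 3 and 2.

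Several genes that interferon induces were lower. Of 23 measured 9 were lower and 1, Ifit2, higher. Isg15, a ubiquitin-like modifier, read 16.8, 15.5, 21, 21.8 and 13.8 in the SNL rats and 50.6, 53.1, 51, 67.2 and 64.9 in the sham rats. The groups did not overlap, and the difference was -1.12 ± 0.12 (limma, adjusted p = 4.74e-07). Ifitm3, a membrane protein that blocks virus entry, read 232, 200.2, 209, 203 and 227 in the SNL rats and 507, 562, 585, 541 and 533 in the sham rats, a difference of -1.29 ± 0.06. Usp18, which removes Isg15 from proteins, was 52 ± 9.27 against 104 ± 6.8 (SD, n = 5). Of 18 MHC class II and antigen presentation genes 5 were lower and 2 higher, and of 17 complement genes 4 and 2. The complement falls numbered 2 without sham rat 14, 22 or 23.

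Nociceptor channels and receptors were split. Of 23 measured 8 were lower and 5 higher, none of the rises holding under equal medians. Without SNL rat 4 the count of rises was 3. Trpv1, the receptor for heat and capsaicin, read 254, 264, 244, 274 and 251.6 in the SNL rats and 448, 464, 489, 472 and 511 in the sham rats. Each sham rat lay above each SNL rat, with a difference of -0.85 ± 0.06 as deposited and -0.61 after quantile normalization (limma, adjusted p = 3.75e-09 and 3.83e-07). Its other probesets were not called under both scalings and differed by 0.16 and 0.28. The sodium channels of nociceptors fell as well. Scn11a, which encodes Nav1.9, read 791, 885, 863, 809 and 827 in the SNL rats and 977, 1212, 1256, 1296 and 1263 in the sham rats, a difference of -0.51 ± 0.07, and Scn10a, which encodes Nav1.8, 292 ± 31.3 against 429.6 ± 25.2 (SD, n = 5), a difference of -0.53 ± 0.07. Sham rat 1 was the lowest sham rat for both, and for neither gene did the groups overlap. Asic3, an acid-sensing channel, was 494 ± 45 against 792 ± 75.1, and Gfra3, the artemin receptor, 114 ± 6.27 against 195 ± 7.86. Asic1 read 73.9 ± 18.3 against 109.6 ± 21.7 at its brightest probeset. Of its 3 other probesets 1 was also called lower, reading 50.7 against 79.7, 1 was not called, and 1 was called in the opposite direction, reading 36.9 against 5.84.

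The study chose Cacna2d1, Scn11a and P2rx4 as known genes of neuropathic pain and tested miRNAs on their untranslated regions in reporter assays. It compared their mRNA between the ipsilateral and contralateral sides, not between SNL and sham rats as here. Cacna2d1, the calcium channel subunit that gabapentin binds, read 145, 136, 157, 137 and 147 in the SNL rats and 114, 122, 124, 115 and 132 in the sham rats. The groups did not overlap, but the difference was small, 0.22 ± 0.07 as deposited (limma, adjusted p = 0.0098), and turned to -0.35 under equal medians. P2rx4, an ATP-gated channel, read 48.5, 43.3, 40.6, 74.5 and 56.2 in the SNL rats and 52.1, 57.2, 55, 51.5 and 49.5 in the sham rats with overlapping groups, a difference of -0.03 ± 0.12 (limma, adjusted p = 0.844), and -0.38 after quantile normalization (adjusted p = 0.0237).

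Among neuropeptides 7 of 23 were lower and 1, Crh, higher, the rise being lost without SNL rat 4 or 8 or sham rat 1, 17, 22 or 23. Sst, somatostatin, which marks itch-related nociceptors, read 239.8, 202, 208, 214 and 205 in the SNL rats and 412, 509.7, 482, 391 and 429 in the sham rats. The groups did not overlap, with a difference of -0.999 ± 0.075 (limma, adjusted p = 1.5e-08). Gal, Cartpt and Penk, the precursors of galanin, CART and enkephalin, were lower by differences of -0.65, -0.77 and -0.50, the groups overlapping for each. General neuronal genes did not move as one. Of the 17 DRG neuron genes 3 were lower and 2 higher. Rbfox3, which encodes NeuN, was 321 ± 26.6 against 687 ± 66.5 (SD, n = 5), a difference of -1.06 ± 0.07, and Avil, an actin-binding protein of sensory neurons, 681 ± 110.0 against 1218 ± 71.5. Tubb3, the neuronal tubulin, was 2104 ± 161 against 1114 ± 62.2, a rise of 0.91 ± 0.06. Syp, a synaptic vesicle protein, fell by 1.02. Syn1, which tethers vesicles, fell by 0.93. Of 29 synaptic genes 8 were lower and 5 higher, 3 higher without SNL rat 9 or 18 or sham rat 14 or 17. The other neuronal lists each had calls in both directions. Of 36 potassium channels 7 were lower and 5 higher, 3 higher without SNL rat 48 or sham rat 14 or 23. Of 20 genes of myelinated afferents 3 were lower and 3 higher, 1 higher without sham rat 17. Of 21 sensory neuron identity factors 1 was lower and 5 higher, 3 higher without SNL rat 18 or 48 or sham rat 14 or 22, and none of the rises held under equal medians. The remaining lists were as mixed. Of 21 Hox genes 3 were lower and 2 higher, 1 higher without sham rat 14 or 22. Of 23 microRNA pathway genes 5 were lower and 4 higher, and of 53 axon growth and guidance genes 8 were lower and 12 higher. Kcnd2 and Kcnip3, a channel of the A-type current and its partner, read 155 ± 8.3 against 38.8 ± 2.74 and 160.4 ± 11.6 against 290.1 ± 35.6. Epha7 and Epha3, ephrin receptors, read 71.9 ± 15.3 against 16.3 ± 3.87 and 45.9 ± 6.13 against 5.3 ± 1.11.

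Genes that a cut axon induces in its own neuron were mixed. Of 39 measured injury-induced genes 8 were higher and 6 lower, 2 of the rises holding under all 3 scalings. Atf3, the factor switched on in axotomised neurons, read 60.7, 65.2, 71, 87.5 and 62.7 in the SNL rats and 70.5, 75.9, 100.05, 64.8 and 84.3 in the sham rats, and the groups overlapped. Its difference was -0.15 ± 0.11 as deposited (limma, adjusted p = 0.245) and -0.36 after quantile normalization, so its size depended on the scaling. Bdnf, a neurotrophin, was 172 ± 27.5 against 109 ± 12.2 (SD, n = 5). Star, which brings cholesterol into mitochondria, read 18.2 ± 12.5 against 91.3 ± 23.9 at its brighter probeset, one of the 15 largest falls, and 16.8 against 6.30 at the other, which was not called under both scalings.

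Immediate early genes, which respond within minutes to activity or stress, were higher for 6 of 32 members and lower for 5. Fos read 198, 243, 204, 233 and 245 in the SNL rats and 148, 98.4, 125, 113 and 98.8 in the sham rats. All SNL rats lay above all sham rats, with a difference of 0.87 ± 0.10 as deposited (limma, adjusted p = 1.39e-06) and 0.98 after quantile normalization. The other probeset of Fos was not called under both and differed by -0.03. Nr4a3, an orphan nuclear receptor, was 77.8 ± 18.1 against 23.5 ± 7.12 (SD, n = 5), and Klf2 and Klf4, factors of vessels and other cells, 67.8 ± 9.72 against 26.8 ± 4.38 and 96.7 ± 9.37 against 50.4 ± 7.79. Of the 4 other probesets of Klf2, 1 was called in the same direction and 1 in the opposite one, their differences running from -0.36 to 0.92. These 4 rises held under equal medians, while those of Nr4a2 and Sik1 did not. In contralateral L5 Fos rose by 2.46, more than in contralateral L4 (limma interaction -1.59, adjusted p = 3.23e-09), and in ipsilateral L4 by 0.87. Of 28 glucocorticoid and FoxO responsive genes 10 were lower and 2 higher. Fkbp5, a chaperone of the glucocorticoid receptor, read 53.2 ± 9.86 against 95.9 ± 8.21, and Ddit4, an inhibitor of mTOR, 382 ± 81.1 against 193 ± 41.9.

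Cell cycle genes were higher for 7 of 26 members (26.9%) and lower for 2 (7.69%). The median signal of the list was 30.3. Of all probesets with a mean signal of 16.8 to 41.7, 26.3% were higher and 4.99% lower. These include probesets with no symbol, which were higher more often (33.8% against 15.9% of those with 1 symbol, at any signal). The list holds only genes with a symbol, so this is not a like share for it. Mki67, the proliferation antigen, read 316, 281, 366, 328 and 305 in the SNL rats and 66.5, 69.3, 82.2, 74.4 and 76.4 in the sham rats. The lowest SNL rat lay far above the highest sham rat, with a difference of 1.90 ± 0.08 (limma, adjusted p = 2.1e-11). Nusap1, a spindle protein, was 93.9 ± 6.86 against 32.9 ± 6.25 (SD, n = 5), Ccnb2, a mitotic cyclin, 88.8 ± 5.63 against 34.2 ± 3.32, and Ube2c, which ends mitosis, 60.5 ± 16.5 against 20.9 ± 4.04. Their differences were 1.18 ± 0.10, 1.06 ± 0.09 and 1.03 ± 0.14.

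The largest falls among genes above the median signal were of varied function. Rpp21, a subunit of ribonuclease P, read 32.6, 40, 54.4, 50.1 and 45.2 in the SNL rats and 163, 223, 252.3, 264 and 260.1 in the sham rats. The SNL rats lay at about the same low level and the groups did not overlap, with a difference of -2.03 ± 0.13 (limma, adjusted p = 1.82e-09). Cntnap1, the axonal protein of the junction beside the node of Ranvier, read 121, 113, 119, 113 and 141 in the SNL rats and 411, 478, 452, 515 and 460.3 in the sham rats, a difference of -1.80 ± 0.07. Pcsk1n, an inhibitor of the enzyme that cuts prohormones, read 364, 350.2, 413, 355 and 423 in the SNL rats and 923, 1365, 1205, 1131 and 1237 in the sham rats, a difference of -1.57 ± 0.09. Slc22a17, a receptor for lipocalin-2, was 96.7 ± 13.8 against 366 ± 11.8 (SD, n = 5), Hgs, of endosomal sorting, 68.5 ± 4.97 against 243 ± 15, Mrps15, of the mitochondrial ribosome, 122 ± 22.7 against 418 ± 12.6, and Itga3, an integrin chain, 52.5 ± 13.2 against 171 ± 13.7. The other probeset of Mrps15 read 21.9 against 14.5, the opposite direction, and was not called under both scalings.

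The largest rises included genes best known from other tissues. Spetex2l1, of a family known from testis, read 898, 923, 874, 919 and 947 in the SNL rats and 203, 195, 211, 219 and 193 in the sham rats, and Chac2, which degrades glutathione, 243, 266, 282, 232 and 242 in the SNL rats and 32.7, 45.3, 34.4, 35.1 and 47.2 in the sham rats. The other probeset of Chac2 was not called and read 92.6 against 78.3. Foxp2, a transcription factor, was 158 ± 13.1 against 22.8 ± 2.41 (SD, n = 5), Tmcc1, a membrane protein, 172 ± 14.2 against 21 ± 3.21, and Cyp2c6v1, a cytochrome P450 known from liver, 169.7 ± 37.8 against 19.9 ± 5.17. The other probeset of Tmcc1 was not called and read 88.8 against 90.5. Of the 15 largest rises 7 had a mean sham signal under 10, a level at which a probeset was among the dimmest of its array. They include Sycp1 and Sgo2 of meiosis, at 92.8 ± 9.19 against 7.31 ± 1.75 and 92.5 ± 11.8 against 7.14 ± 2.68, Prl4a1 of the placental prolactin family, at 92 ± 8.09 against 8.49 ± 6.65, and Vom2r75, a vomeronasal receptor, at 96 ± 16 against 9.47 ± 1.61. Rbm33 read 101 ± 9.31 against 6.77 ± 2.06 at its brightest probeset and 40.8 against 48.02 at the other, which was not called under both scalings.

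Over all probesets, the SNL minus sham difference in contralateral L4 departed from that in ipsilateral L4 for 4347 (14%) as deposited and 3841 (12.4%) after quantile normalization, and from that in contralateral L5 for 8917 (28.7%) and 5965 (19.2%) (limma interaction, adjusted p under 0.05). Many calls were shared. Of the 2014 genes higher in contralateral L4, 1000 (49.7%) were also higher in ipsilateral L4 and 1103 (54.8%) in contralateral L5. Over all genes these shares were 11.6% and 13.9%. Of the 3544 lower genes, 1774 (50.1%) and 2509 (70.8%) were lower there too, against 18% and 30.4% of all genes. Calls in the opposite direction were made for 1.13% to 2.88%. The 3 ganglia come from the same 10 rats, so these comparisons share animals though no array. The differences from L5 include the change of array series and the muscle RNA of the SNL L5 arrays, and these cannot be told apart from segment. The differences from ipsilateral L4 include array-level differences between the sides, such as the GAPDH ratio, which cannot be told apart from side.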

How the data were processed

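The authors hybridized labelled RNA of single DRGs to Affymetrix rat genome 230 2.0 arrays and summarized them with MAS 5, of which the sources used here give no version. The deposited values are linear intensity signals. Trimmed by 2% at each end, the mean of an array was 99.43 to 99.67 over the 10 arrays. Groups and rat numbers came from the sample labels, and no label pairs SNL with sham rats.

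Signals of 31042 probesets, without 57 control probesets, were taken as log2(signal + 16), which understates the change of a dim gene, and fitted in R 4.3.3 with limma 3.58.1 (lmFit, then eBayes with trend). Adjusted p-values are Benjamini-Hochberg over all probesets, called under 0.05. The fit was repeated after quantile normalization of the 10 arrays and after scaling to equal medians. Interaction terms with contralateral L5 and ipsilateral L4 were fitted to 20 arrays. Symbols came from the platform annotation, updated by gene identifier for 20758 of 20826 probesets with 1 symbol (436 have several, 9780 none listed here). The probeset with the highest mean signal over the 10 arrays stands for a gene.

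Named genes were the 15 largest rises and 15 largest falls, by the mean of both log2 differences, among genes called under both scalings, above the median signal and with no overlap, up to 4 called members of each of 35 gene lists, and the 3 genes the study measured. Other list members were named after their values were seen. The members and lists were chosen with earlier results of these data known. The fits were tested on simulated data. Array-level values were compared by exact permutation tests in Python 3.11.15 with scipy 1.17.1. Alternatives were other offsets, scalings, filters, variance models, thresholds, the methods' t-test, quality covariates, larger fits, the rat as a block and leaving out each array. Depth does not apply to arrays, and their number limits the precision.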

Additional observations from a re-analysis of the deposited data

Results flagged for a closer look

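In 16 of 268 groups of 5 arrays examined, the highest or lowest array stood far from the other 4. Chance flags about 1 in 20 groups. Among SNL rats, rat 18 had the highest actin ratio (4.34, the others 3.89 to 4.00), the highest Fbxo16 signal (78.2) and the lowest Calca signal (3335). Rat 48 had the highest Ndufs7 (241) and Rig1 (25.5) signals and the lowest Rup2 signal (74.6). Rat 9 had the highest S100a8 (605) and Penk (88.2) signals. Rat 4 had the highest Sc5d signal (471) and the lowest Syn1 signal (329). Among sham rats, rat 1 had the highest signals of Ugt8 (391), which makes a myelin lipid, Ccn2 (227) and Prl4a1 (19.97). The same rat had the lowest signals of the sodium channels Scn10a (385) and Scn11a (977). Rat 17 had the highest Epha4 signal (41.7). Except for the actin ratio, none of the array-level values of these rats was an outlier.

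Of 20 genes compared, 11 had an SNL minus sham difference in contralateral L4 that departed from that in ipsilateral L4. For 8 it departed from that in contralateral L5 (limma interaction, adjusted p under 0.05 under both scalings). Over all probesets 14% and 28.7% departed as deposited and 12.4% and 19.2% after quantile normalization. Most of the 20 were named for their difference in contralateral L4, which enters the interaction. Departures were thereby favoured, and the counts do not show how common they are. The values below are contralateral L4 minus the other ganglion, on the log2 scale. Against ipsilateral L4 the neutrophil genes S100a8, RatNP-3b, S100a9 and Np4 differed by 3.13, 1.99, 1.79 and 1.51, and Ugt8 by 1.44. Per1 differed by -1.97, Ccn2 by -1.53, Egr2 by -1.11, Col4a1 by -0.86, Prx by -0.55 and Trpv1 by -0.27. Against contralateral L5 Fos differed by -1.59, S100a8 by -1.12, Egr2 by -0.91, Timp1 by -0.81, S100a9 by -0.70, Prx by -0.58, Trpv1 by -0.49 and Col4a1 by -0.34. In the L5 comparison, array series and segment cannot be told apart, nor can array-level differences and side in the comparison with ipsilateral L4.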

How the results depend on the processing

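The count of called probesets, 19814 as deposited, 15890 after quantile normalization and 11737 under both, stayed within 1.5 times of these under most alternatives. Keeping only probesets above the median signal gave 10945 as deposited and 10568 after quantile normalization. A mean signal of at least 50 gave 9910 and 9569. Fewer probesets were tested, and the called share of them rose. It was 63.8% and 51.2% without a filter, 70.5% and 68.1% above the median signal, and 70.6% and 68.2% from 50 up. At least 1.5-fold left 10227, 6802 and 4799 (as deposited, quantile normalized, both). The methods' t-test at p under 0.001 called 10988, 7876 and 5795 on log2 values and 10422, 7836 and 5593 on linear signals, and after Benjamini-Hochberg at 0.05 18499, 14611 and 10802 on log2 values. With the actin ratio as a covariate 8676, 4353 and 3446 were called, and with the bacterial control level 669, 281 and 276. Both covariates separate the cohorts completely, so covariate and group cannot be told apart in these fits.

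Leaving out each array in turn gave 18451 to 19576 probesets as deposited, 14635 to 15530 after quantile normalization and 10860 to 11493 under both. This and the next range were chosen after seeing the data for the array-level values and the interactions. The difference in median signal was 17.4 to 17.9, in the percent under 16 -16.8 to -16.0, in bacterial control level 1.70 to 1.86, in actin ratio -0.85 to -0.70 and in GAPDH ratio 0.079 to 0.16. Without sham rat 14 the GAPDH ratio differed by 0.155 (exact permutation test, p = 0.0159). Interactions with contralateral L5 numbered 7903 to 9229 and with ipsilateral L4 3631 to 4485.

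No paired analysis was possible because SNL and sham rats share no rat number. In the interaction fits the rat as a replicate block called 8830 probesets against contralateral L5 (8917 without it) and 4570 against ipsilateral L4 (4347 without it). Ganglia of the same rat deviated from their group means with correlations of -0.16 to 0.30.

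Of 129 named genes 105 had a value under all 29 alternatives, and 94 of them kept their direction under all. The other 24 were left out by a filter on low signal and kept their direction under the alternatives that gave a value. Of 46 called genes with other probesets, 18 had another called in the same direction, 2 of these (Asic1 and Klf2) also 1 in the opposite direction, and 28 had no other called under both scalings. Under equal medians Ugt8 turned to -0.013, Cacna2d1 to -0.35 and Calca to -0.0074, and Calca to -0.25 after quantile normalization. With the mean over all probesets of a gene Asic1 turned to 0.051, Per2 to 0.13, Cry2 to 0.031 and Usp2 to 0.087. With the bacterial control level as covariate Lcn2 turned to 0.40, Usp2 to 0.013 and Atf3 to 0.62. With the actin ratio P2rx4 turned to 0.48, Atf3 to 0.41 and Hbb to 0.0045. With each array left out in turn P2rx4 lay between -0.13 and 0.035, above 0 without SNL rat 8 (0.019) or 9, and Hbb between -0.11 and 0.012, above 0 without sham rat 14 or 23 (0.0028). Calls were lost for 90 of the named genes with the bacterial control level, 27 with the actin ratio, 15 at 1.5-fold, 15 by the t-test at p under 0.001 on log2 values and 6 with equal medians.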

Other observations

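Of the 50 largest rises 40 were read by probesets for which no gene symbol is listed. Probeset 1385267_at read 442 ± 22.4 (SD, n = 5) in SNL and 20.2 ± 1.69 in sham rats, a log2 difference of 3.66, and 1397257_at 1042 ± 37.9 against 103 ± 11.1, a difference of 3.15. Among falls without a symbol, 1371910_at read 96.3 ± 12.5 against 378 ± 54.9, a difference of -1.81, and 1374394_at 244 ± 31.0 against 779 ± 63.9, a difference of -1.62. In each of the 4 the adjusted p of limma was under 0.05 under both scalings. These probesets were chosen after their values were seen.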
